A study of Homo sapiens with 6 samples.

Results

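The MAP kinase phosphatases, the members of the dual-specificity phosphatase (DUSP) family that act on MAP kinases, were followed in 22RV1 cells treated with bruceantin (BCT). The 10 genes, DUSP1, DUSP2, DUSP4, DUSP5, DUSP6, DUSP7, DUSP8, DUSP9, DUSP10 and DUSP16, were taken by symbol from the 26255 genes of the RNA-seq table, and all 10 were found. 22RV1 is a human castration-resistant prostate cancer (CRPC) cell line, and BCT is a quassinoid, a plant-derived compound. One group of 3 samples received 10 nM BCT and the other group of 3 samples received the vehicle DMSO, both for 24 h in RPMI 1640 with 10% fetal bovine serum. A single line, dose and time point therefore stand behind each comparison. The labels do not say whether the 3 samples of a group came from separate cultures, so the p-values measure the spread between these samples, which may be technical.

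MAP kinases (ERK, JNK and p38) are switched on when a MAP kinase kinase phosphorylates a threonine and a tyrosine of their activation loop. MAP kinase phosphatases remove both phosphates and so end the signal, and many of their genes are themselves transcribed in response to MAP kinase activity, which makes them feedback inhibitors. By where they act and on what, they are grouped as nuclear, inducible enzymes (DUSP1, DUSP2, DUSP4 and DUSP5), cytoplasmic enzymes that prefer ERK (DUSP6, DUSP7 and DUSP9) and enzymes that prefer JNK and p38 (DUSP8, DUSP10 and DUSP16).

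Expression was given as FPKM, fragments scaled by gene length and by the mapped reads of the library. FPKM is a relative measure, so fewer transcripts per cell and a larger pool of other RNA cannot be told apart. Total FPKM ranged from 1169649 to 1572321 in DMSO samples and from 757534 to 799838 in BCT samples, of which MIR6087 alone accounted for 43.5% to 55.3% and 31.7% to 32.5%, and the files hold no read counts. Of the epithelial markers checked, KRT8 averaged 269.8 ± 9.10 FPKM in DMSO samples and 609.9 ± 64.7 FPKM in BCT samples, and EPCAM averaged 75.6 ± 1.33 and 61.8 ± 2.84 FPKM (SD, n = 3 each). Of 8 markers of leukocytes, endothelium and fibroblasts, summed to 3.70 to 4.85 FPKM with DMSO and 11.3 to 14.7 FPKM with BCT, PTPRC, CD3E, PECAM1, VWF, COL3A1 and DCN stayed at or below 0.192 FPKM in every sample. CD68 and COL1A1, which made up the rest of that sum, were both called higher with BCT, and their part in the results below was not tested.

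Of the 10 phosphatase transcripts, 7 were higher in BCT-treated cells (DUSP1, DUSP4, DUSP5, DUSP6, DUSP8, DUSP10 and DUSP16), 1 was lower (DUSP9), and 2 (DUSP2 and DUSP7) did not pass the threshold. A gene was called when its log2 fold change of FPKM + 0.1 was beyond 0.85 in size and its FDR was below 0.05, by limma with Benjamini-Hochberg adjustment over the 12729 genes whose mean reached 1 FPKM. Among all of these genes, 13.9% were called higher and 17.8% were called lower. The median log2 fold change was 2.14 over the 10 phosphatases and -0.04 over all genes tested. DMSO and BCT samples did not overlap in any of the 10, and they did not overlap in 85.3% of all genes tested. All 10 passed the filter on low values, DUSP5 only through its BCT samples and DUSP9 only through its DMSO samples. Under a rescaling of every sample to the same FPKM sum, which put the median of all tested genes at 0.72 and gave 5614 higher and 668 lower calls against 1764 and 2263 as deposited, the same 7 phosphatases were called higher and the same 1 lower.

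**Figure D1:**
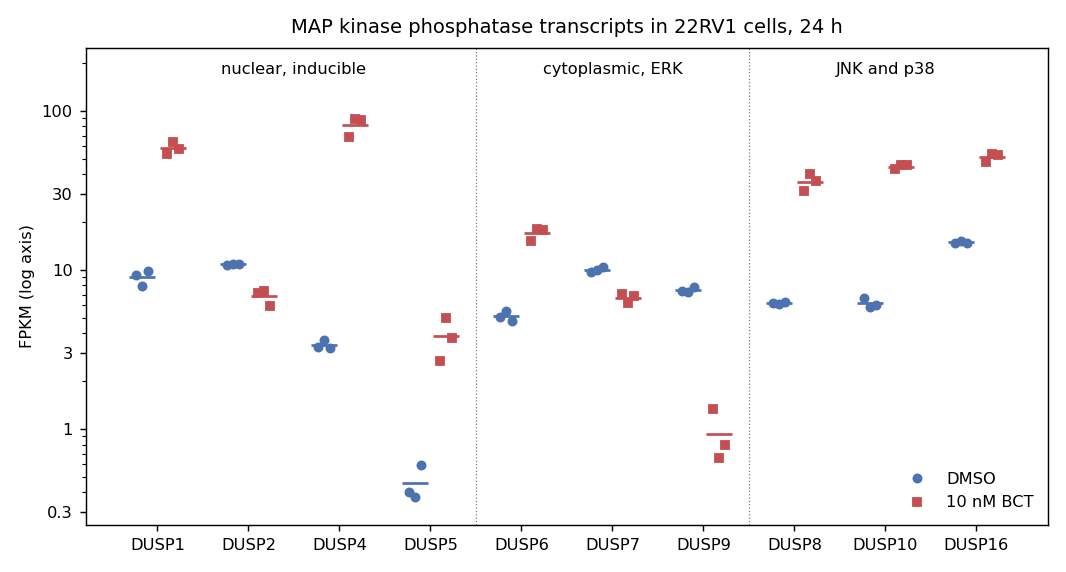
FPKM (log axis) of the 10 MAP kinase phosphatase genes in each of 3 DMSO samples (circles) and 3 samples with 10 nM BCT for 24 h (squares), with group means as horizontal lines. DUSP4 has the second lowest mean with DMSO and the highest with BCT, DUSP9 has the lowest mean with BCT, and no gene has overlapping groups, although DUSP2 and DUSP7 lie slightly higher rather than lower with BCT once samples are rescaled to equal FPKM sums.

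Of the 4 nuclear, inducible phosphatases, 3 rose, and DUSP4 among them had the largest rise of the family. DUSP1 dephosphorylates p38, JNK and ERK in the nucleus and is an immediate-early gene. It is at chr5:172195093-172198203 of hg19 on the minus strand, with 4 exons and a coding sequence of 367 codons in GENCODE. DUSP1 levels in the DMSO samples were 9.32, 7.95 and 9.91 FPKM, against 53.7, 63.7 and 57.5 FPKM in the BCT samples. Every BCT sample was well above every DMSO sample, and means rose 6.44-fold, from 9.06 ± 1.01 to 58.3 ± 5.08 FPKM (SD, n = 3 each). The log2 fold change was 2.68 (standard error 0.094, limma adjusted p = 3.26e-07). Its promoter is shown because it holds a full cAMP response element, TGACGTCA, which was found in 1.65% of the 35116 promoter windows of the same length in RefSeq, searched on both strands. The 250 bases before the transcription start are printed 5′ to 3′ on the strand of the gene, and capitals mark the element at -125, its half-sites TGACG or CGTCA at -172 and -111, and a TATA box (TATAAA) at -30, where -1 is the last base before the start. The full element holds the half-site on both strands, and a half-site alone was found in 21.2% of the windows and a TATA box in 10.7%. The promoters of DUSP2, DUSP6, DUSP7, DUSP9, DUSP10 and DUSP16 hold neither the full element nor the half-site. DUSP4 and DUSP5 had no promoter entry. Whether the element goes with the change under BCT was not tested.
DUSP1 promoter, chr5:172771196-172771445 of GRCh38.p14, minus strand: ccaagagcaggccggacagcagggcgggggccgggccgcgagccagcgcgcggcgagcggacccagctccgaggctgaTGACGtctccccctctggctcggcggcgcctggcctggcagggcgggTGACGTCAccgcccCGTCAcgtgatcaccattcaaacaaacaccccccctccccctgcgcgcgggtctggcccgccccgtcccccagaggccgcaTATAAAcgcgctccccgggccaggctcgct

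DUSP4, which acts on ERK and JNK in the nucleus, rose most among the 10. The gene is at chr8:29190579-29208267 of hg19 on the minus strand and has 4 exons. DUSP4 levels in the DMSO samples were 3.30, 3.64 and 3.26 FPKM, against 69.0, 89.4 and 87.5 FPKM in the BCT samples, so that the lowest BCT sample was far above the highest DMSO sample. The mean went from 3.40 ± 0.211 to 82.0 ± 11.3 FPKM (SD, n = 3 each), a 24.1-fold rise, with a log2 fold change of 4.55 (standard error 0.10, limma adjusted p = 1.22e-07). By mean level, DUSP4 stood at percentile 20.1 of all tested genes with DMSO and at percentile 91.6 with BCT.

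DUSP5, a nuclear phosphatase with ERK as its substrate, is at chr10:112257625-112271302 on the plus strand. DUSP5 levels in the DMSO samples were 0.403, 0.372 and 0.593 FPKM, against 2.69, 5.02 and 3.76 FPKM in the BCT samples. It was scarce in every DMSO sample, and its BCT samples differed most from each other among the transcripts that rose, with a coefficient of variation of 30.6%. The log2 fold change was 2.80 (standard error 0.25, limma adjusted p = 1.19e-05), and a pseudocount of 1 in place of 0.1 lowered it to 1.70 with the call kept. DUSP5P1, a pseudogene of DUSP5, was listed at 1.10 to 1.49 FPKM in DMSO samples and 1.11 to 1.39 FPKM in BCT samples, and how reads were divided between the gene and its pseudogene is not given in the sources used here. DUSP2, best known from lymphoid cells and at chr2:96808908-96811179 on the minus strand, was the member of this class that did not pass the fold threshold. DUSP2 levels in the DMSO samples were 10.8, 10.9 and 10.9 FPKM, against 7.19, 7.38 and 5.93 FPKM in the BCT samples. Its log2 fold change was -0.66 (standard error 0.085, limma adjusted p = 0.000111) as deposited and 0.096 after rescaling to equal FPKM sums. It was -0.68 after rescaling to equal medians, -0.65 after quantile normalization and -0.28 after rescaling to equal sums without MIR6087. Of these scalings, only equal FPKM sums reversed its direction.

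In the cytoplasmic, ERK-selective class, the 3 members went apart. DUSP6, the phosphatase that binds ERK in the cytoplasm and whose transcript follows ERK activity in many cells, is at chr12:89741602-89746636 on the minus strand. DUSP6 levels in the DMSO samples were 5.06, 5.52 and 4.79 FPKM, against 15.1, 18.1 and 17.9 FPKM in the BCT samples. All BCT samples were higher, by 3.33-fold in the means, with a log2 fold change of 1.71 (standard error 0.087, limma adjusted p = 1.03e-06). DUSP9, known from placenta and from embryonic stem cells, is at chrX:152907897-152916781 on the plus strand. DUSP9 levels in the DMSO samples were 7.40, 7.29 and 7.82 FPKM, against 1.33, 0.656 and 0.791 FPKM in the BCT samples. It was the phosphatase that fell, by 2.94 on the log2 scale (standard error 0.21, limma adjusted p = 3.97e-06), and its mean was 8.10-fold lower with BCT. The BCT samples of DUSP9 had a coefficient of variation of 38.6%, with replicate 1 at 1.84 times the mean of the other 2.

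DUSP7, a close relative of DUSP6, is at chr3:52082937-52090461 on the minus strand. DUSP7 levels in the DMSO samples were 9.77, 10.1 and 10.4 FPKM, against 7.03, 6.16 and 6.86 FPKM in the BCT samples. Its log2 fold change of -0.59 (standard error 0.068, limma adjusted p = 5.72e-05) did not reach the fold threshold and was 0.17 after rescaling to equal FPKM sums. It stayed below 0 under equal medians (-0.60), quantile normalization (-0.57) and equal sums without MIR6087 (-0.20). The sum of DUSP6, DUSP7 and DUSP9 was 22.2, 22.9 and 23.0 FPKM with DMSO and 23.5, 24.9 and 25.5 FPKM with BCT. The ratio of the mean sums, BCT over DMSO, was 1.09 as deposited and 1.83 after rescaling to equal FPKM sums. Within this sum, the make-up changed from mainly DUSP7 and DUSP9 to mainly DUSP6.

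All 3 phosphatases that prefer JNK and p38 rose. DUSP8, known from brain, heart and skeletal muscle, is at chr11:1575281-1593150 on the minus strand. DUSP8 levels in the DMSO samples were 6.24, 6.08 and 6.26 FPKM, against 31.2, 40.2 and 36.3 FPKM in the BCT samples. The mean rose 5.80-fold, with a log2 fold change of 2.51 (standard error 0.089, limma adjusted p = 3.26e-07). The 5′ end of DUSP8 overlaps KRTAP5-AS1 on the opposite strand, which was at 0.162 to 0.191 FPKM in DMSO samples and at 1.69 to 1.84 FPKM in BCT samples. The library kit does not keep the strand, so reads of the shared stretch cannot be told apart. The promoter of DUSP8 is shown because it holds the cAMP response element TGACGTCA at 2 positions, -118 and -74. Capitals mark both elements and an inverted CCAAT box (ATTGG) at -86, and a CCAAT box on either strand was found in 32.0% of all windows.
DUSP8 promoter, chr11:1572272-1572521 of GRCh38.p14, minus strand: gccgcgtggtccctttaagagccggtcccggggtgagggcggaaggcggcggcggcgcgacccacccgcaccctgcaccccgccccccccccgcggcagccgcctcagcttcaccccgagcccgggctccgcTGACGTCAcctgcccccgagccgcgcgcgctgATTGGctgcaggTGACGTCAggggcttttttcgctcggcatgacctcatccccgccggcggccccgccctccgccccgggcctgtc

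DUSP10, which acts on p38 and JNK in both nucleus and cytoplasm, is at chr1:221874762-221915518 on the minus strand. DUSP10 levels in the DMSO samples were 6.66, 5.85 and 6.02 FPKM, against 43.3, 45.5 and 45.4 FPKM in the BCT samples. The BCT samples lay close together, with a coefficient of variation of 2.81%, and the mean rose 7.24-fold with a log2 fold change of 2.84 (standard error 0.062, limma adjusted p = 1.22e-07). DUSP16, a JNK phosphatase that shuttles between nucleus and cytoplasm, is at chr12:12626216-12715448 on the minus strand. DUSP16 levels in the DMSO samples were 14.8, 15.2 and 14.9 FPKM, against 47.8, 53.4 and 52.6 FPKM in the BCT samples. It was the most abundant of the 10 with DMSO and still rose 3.43-fold, with a log2 fold change of 1.77 (standard error 0.057, limma adjusted p = 2.6e-07). The 3 genes of this class also have the longest coding sequences of the family, 482 to 665 codons against 314 to 419 codons in the other 7. GENCODE places further long non-coding transcripts on the strand opposite DUSP1, DUSP6 and DUSP16, for which the same limit of an unstranded library holds.

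**Figure D2:**
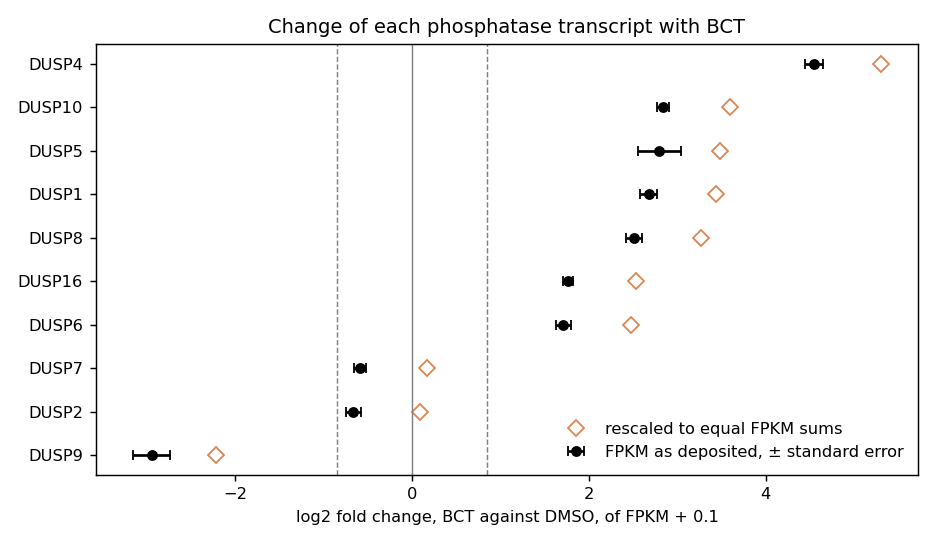
log2 fold change of FPKM + 0.1, BCT against DMSO, for each phosphatase gene, as deposited (filled circles, bars are the standard error from limma) and after rescaling to equal FPKM sums (open diamonds), with dashed lines at 0.85 in either direction. The values run from -2.94 for DUSP9 to 4.55 for DUSP4, and DUSP2 and DUSP7 lie below 0 as deposited and above 0 after rescaling.

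The summed level of the 10 transcripts was 73.7, 72.8 and 74.8 FPKM with DMSO and 278, 330 and 315 FPKM with BCT, 4.17 times higher in the means as deposited and 7.06 times higher after rescaling to equal FPKM sums. The nuclear, inducible class went from 23.7 ± 0.899 to 151 ± 16.8 FPKM and the JNK and p38 class from 27.3 ± 0.337 to 132 ± 8.66 FPKM (SD, n = 3 each). Their shares of the family sum were 32.2% and 37.1% with DMSO and 49.0% and 42.9% with BCT, whereas the share of the cytoplasmic, ERK-selective class was 30.8% with DMSO and 8.04% with BCT. These shares are ratios within a sample and do not depend on the scaling of the samples.

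With DMSO, the order of mean FPKM was DUSP16, DUSP2, DUSP7, DUSP1, DUSP9, DUSP8, DUSP10, DUSP6, DUSP4 and DUSP5. The ranges of DUSP7 and DUSP1 and those of DUSP8 and DUSP10 overlapped. With BCT the order was DUSP4, DUSP1, DUSP16, DUSP10, DUSP8, DUSP6, DUSP2, DUSP7, DUSP5 and DUSP9, with overlapping ranges for DUSP2 and DUSP7. DUSP4 thus went from 4.60% to 26.7% of the family sum and DUSP16 from 20.3% to 16.7%. The highest mean was 32.8 times the lowest with DMSO and 88.5 times the lowest with BCT.

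**Figure D3:**
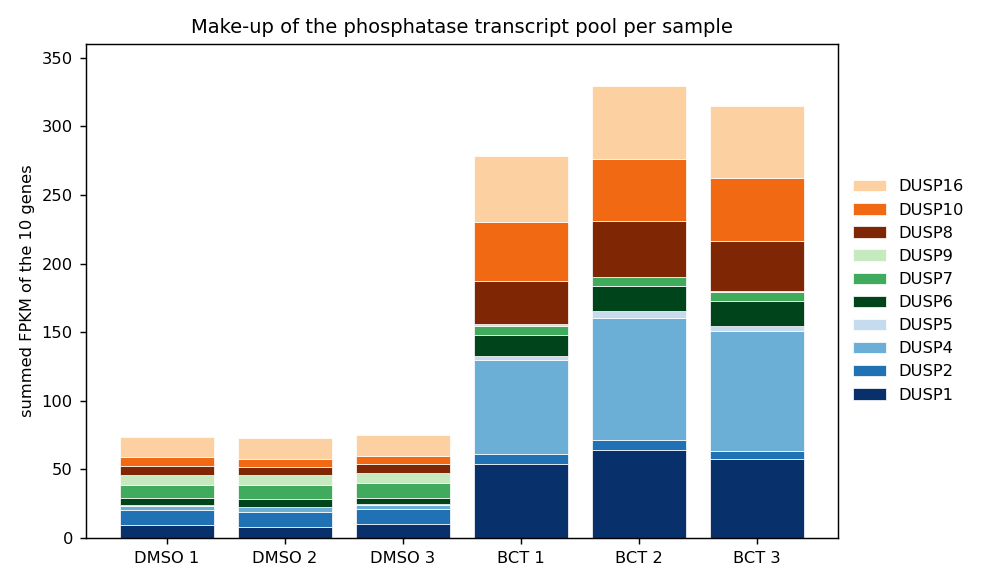
Summed FPKM of the 10 phosphatase genes in each DMSO and BCT sample, stacked by gene (blue, nuclear and inducible; green, cytoplasmic and ERK selective; orange and brown, JNK and p38 selective). The DMSO samples reach 72.8 to 74.8 FPKM and the BCT samples 278 to 330 FPKM, with DUSP4 the widest band in each BCT sample.

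The BCT samples differed in level, and whether this spread is technical was not tested. BCT replicate 2 had the highest level in all 7 transcripts that rose, a count for which the share over all genes was not worked out. BCT replicate 1 was the BCT sample nearest to DMSO in 9 of 10 phosphatases, the exception being DUSP2. BCT replicate 1 was also nearest to DMSO in 69.1% of all tested genes. Without any 1 of the 6 samples, 7 phosphatases were called higher and 1 lower.

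The 3′ UTRs of several of these genes hold the pentamer ATTTA, the core of AU-rich elements, which are known to shorten the life of immediate-early transcripts. Among 10886 tested genes with a 3′ UTR in GENCODE, the median was 2 pentamers and 1.76 per kb, and 26.3% had none. DUSP1 holds 4 in 666 bases, or 6.01 per kb, at percentile 94.8 of these genes by number per kb and 59.9 by count. DUSP2 holds 3 (4.59 per kb, percentile 88.9) and DUSP10 holds 3 (3.04 per kb, percentile 72.1). DUSP16 holds 8 and DUSP4 holds 6, in longer UTRs (2.25 and 1.51 per kb), DUSP8 holds 4 (1.62 per kb), DUSP6 and DUSP9 hold 1 each, and DUSP5 and DUSP7 hold 0. Among the transcripts called higher, the count ran from 0 in DUSP5 and 1 in DUSP6 to 8 in DUSP16. It was 3 in DUSP2 and 0 in DUSP7, which were not called, and 1 in DUSP9, which fell. A longer form, TTATTTA followed by 2 bases that are each A or T, occurs 2 times in DUSP1. It occurs 1 time each in DUSP4, DUSP8 and DUSP10. This form is absent from DUSP2, DUSP5, DUSP6, DUSP7, DUSP9 and DUSP16, and 22.4% of the tested genes hold it. Whether either form goes with the change was not tested. Whether pentamers overlap in DUSP4 was not looked at. The windows of DUSP1, DUSP8 and DUSP10 in which pentamers overlap are shown on the strand of the gene with those bases in capitals, at hg19 positions.
DUSP1, chr5:172195644-172195673, minus strand: ggctggtccttATTTATTTAacttcacccg
DUSP8, chr11:1577602-1577631, minus strand: ttcgattttttATTTATTTAagctgttcat
DUSP10, chr1:221874843-221874872, minus strand: aagaaaaaaaaATTTATTTAaaaatatttt

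The same comparison was set beside other genes of the MAP kinase pathway. Of 9 MAP kinases tested, 3 fell as deposited, MAPK12 (p38γ), MAPK11 (p38β) and MAPK3 (ERK1), with log2 fold changes of -1.10, -1.05 and -0.91. None of these calls was made after rescaling to equal FPKM sums, where 1 MAP kinase was called higher. That rescaling called 5614 of all 12729 genes tested higher and 668 lower, which is the background for each count after rescaling given below. Among 7 MAP kinase kinases, as deposited, the p38 activator MAP2K3 rose from 35.5 ± 0.743 to 105 ± 11.3 FPKM (SD, n = 3 each). MAP2K6, also a p38 activator, fell from 5.76 ± 0.456 to 1.10 ± 0.180 FPKM (SD, n = 3 each). After rescaling to equal FPKM sums, 4 MAP kinase kinases were called higher and 1 lower. Of the 6 RAS and RAF genes, BRAF was called, with a rise of 1.71 on the log2 scale. In this list 2 genes were called higher without BCT replicate 1 or without DMSO replicate 3. The count was also 2 under quantile normalization and under equal sums without MIR6087, and all 6 were called higher after rescaling to equal FPKM sums. Of the 11 MAP3Ks of the stress arms, 0 were called by limma. At an unadjusted p under 0.05, 5 were higher and 3 were lower, against 5049 and 5509 of all 12729 genes tested. These 5 and 3 genes also had an FDR below 0.05 and missed the call only on the fold threshold. After rescaling to equal FPKM sums, 6 were called higher. Rescaling to equal sums without MIR6087 gave 4 called higher. Leaving out BCT replicate 1 gave 3 called higher, leaving out DMSO replicate 2 gave 2, and a pseudocount of 0.01 or quantile normalization gave 1.

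The feedback inhibitors of the Sprouty and SPRED families, which act upstream of RAF, had 3 of 5 tested genes called higher, SPRY2 (1.45), SPRED2 (1.20) and SPRY4 (0.98), in log2 fold change, and all 5 after rescaling to equal FPKM sums. Of 12 tested atypical DUSPs, most of which lack the MAP kinase binding domain, 4 rose and 1 fell. DUSP15 went from 0.304 ± 0.0666 to 3.97 ± 0.680 FPKM and DUSP26 from 0.460 ± 0.0649 to 2.75 ± 0.279 FPKM (SD, n = 3 each), and both passed the filter only through their BCT samples. DUSP14 rose 2.52-fold, and DUSP23 fell by 1.38 on the log2 scale as deposited. The median log2 fold change was 0.59 for the atypical DUSPs against 2.14 for the MAP kinase phosphatases, with no test of the difference. After rescaling to equal FPKM sums, 7 atypical DUSPs were called higher and 0 lower, against 5614 and 668 of all 12729 genes tested. Of 4 tested serine or tyrosine phosphatases outside the DUSP family that act on MAP kinases, PPM1D (1.39) was called higher and PTPRR (-0.95) lower. The call of PTPRR was lost with a pseudocount of 1 and under rescaling to equal sums with or without MIR6087. It was kept under equal medians and quantile normalization.

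Immediate-early genes downstream of the MAP kinases were mostly called higher. All 7 AP-1 genes were called higher, with FOS rising from 3.43 ± 0.242 to 73.0 ± 19.8 FPKM, JUN from 20.1 ± 0.585 to 229 ± 33.4 FPKM and FOSL1 from 0.213 ± 0.0865 to 3.04 ± 1.02 FPKM (SD, n = 3 each). Of the 10 EGR, NR4A and IER genes, 8 were called higher, among them NR4A3 (5.09), EGR4 (4.90) and EGR2 (4.64) in log2 fold change. Of these 8, 5 (EGR2, EGR3, EGR4, NR4A2 and NR4A3) averaged under 1 FPKM with DMSO and passed the filter only through their BCT samples, as did FOSB and FOSL1 among the AP-1 genes, so they had to differ. Among genes with a DMSO mean of 1 FPKM or more, 5 of 5 AP-1 genes and 3 of 5 EGR, NR4A and IER genes were called higher. Of 9 tested ERK output genes, a list that shares EGR1, FOSL1 and IER3 with those above, 4 were higher and 1 was lower as deposited. After rescaling to equal FPKM sums, 7 of them were higher and 1 was lower, against 5614 and 668 of all 12729 genes tested. In this list, as deposited, EGR1 rose by 4.23, FOSL1 by 3.31 and PHLDA1 by 2.57 on the log2 scale, and MYC fell by 2.18. The median log2 fold changes were 2.41 for AP-1, 3.04 for EGR, NR4A and IER, and 0.78 for ERK output genes, with the genes that passed only through BCT included.

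**Figure D4:**
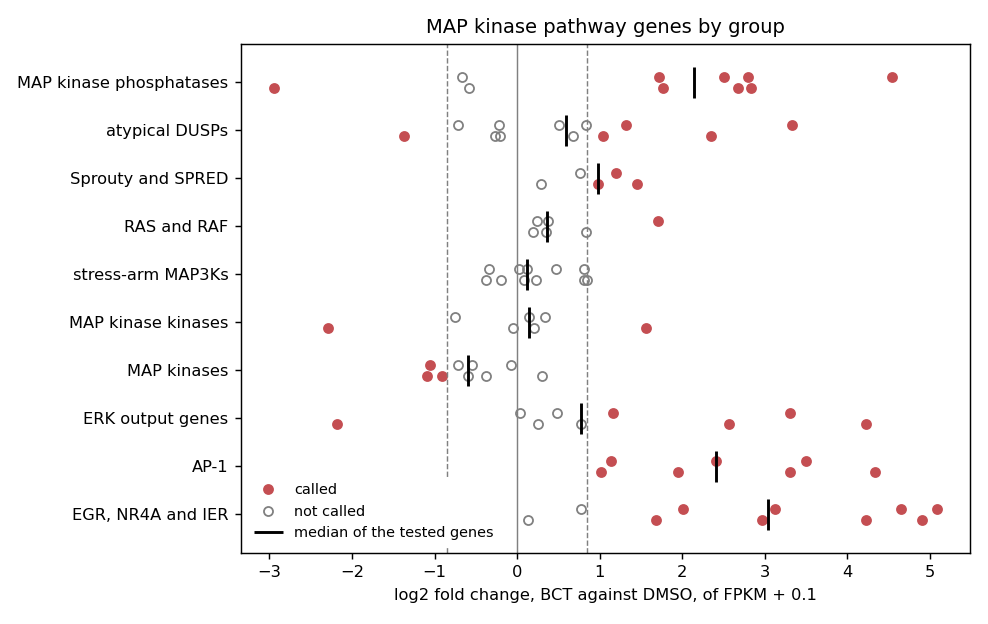
log2 fold change of FPKM + 0.1, BCT against DMSO, of every tested gene in 10 groups of the MAP kinase pathway, as deposited, with called genes filled, the other genes open, and the median of each group as a bar. The phosphatases, AP-1 and EGR, NR4A and IER groups have medians of 2.14, 2.41 and 3.04, which include 1, 2 and 5 genes called higher that passed the filter only through BCT samples, and the MAP kinases have a median of -0.59, where none of the 3 lower calls is made after rescaling to equal FPKM sums.

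By Pearson correlation of log2(FPKM + 0.1) over the 6 samples, the genes whose pattern was most like that of DUSP4 were DUSP16 (0.99995), LATS2 (0.99991) and PTP4A1 (0.99979). For DUSP9 they were PIK3R2 (0.99996), SEPN1 (0.99995) and EVL (0.99992). With 3 samples in each of 2 groups, such values mainly follow the difference between the groups, and 3738 genes had a correlation above 0.95 with DUSP4 and 4250 genes with DUSP9.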

How the data were processed

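Total RNA of 22RV1 cells (3 DMSO and 3 BCT samples) was sequenced from TruSeq RNA v2 libraries, which do not keep the strand. The authors trimmed reads with Trimmomatic (0.38 in the submitters' notes), used HISAT2 for alignment to hg19 and StringTie for assembly, and deposited FPKM values per gene; the notes also name HTSeq and CASAVA. The gene annotation and the gene-level test are not given in the sources used here. The deposited FPKM values hold no counts, so depth is known only relative to DMSO replicate 1, from steps of low values, as 0.883 to 1 with DMSO and 1.06 to 1.13 with BCT, and no counting intervals were given.

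The 12729 of 26255 genes whose mean reached 1 FPKM were tested on log2(FPKM + 0.1) with limma 3.58.1 in R 4.3.3, using its trended variance prior and Benjamini-Hochberg adjustment, and called beyond a log2 fold change of 0.85 at an FDR of 0.05. An exact test of 3 against 3 samples cannot give a p below 0.1 and was not used. The steps were tested on simulated data. The members, pathway lists and markers were chosen with earlier results of these data known. From each list at most 3 called genes in each direction, those with the largest change, were named, and for DUSP4 and DUSP9 the 3 genes most correlated over the samples. Marker genes, MIR6087, KRTAP5-AS1 and the genes under the filter fall outside that rule and were picked once their values were known, and some of the markers checked are not reported here. Alternatives covered the pseudocount, the filter, the scaling, the FDR, the variance model, the replicate block and each sample left out. Promoters came from RefSeq (GRCh38.p14), where 8 of the 10 genes matched, and 3′ UTRs from GENCODE release 44 lifted to GRCh37; gene positions are those of the deposited files, counted from 1.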

Additional observations from a re-analysis of the deposited data

How the results depend on the processing

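The 10 phosphatases kept their direction and their side of the threshold in 178 of 180 values over the alternatives, with log2 fold changes of 4.23 to 5.30 for DUSP4 and -3.21 to -2.16 for DUSP9. The other 2 values were those of DUSP2 (0.096) and DUSP7 (0.17) after rescaling to equal FPKM sums, a scaling that moved the median of all tested genes from -0.04 to 0.72. Over all genes tested, this rescaling gave 5614 called higher and 668 lower, rescaling to equal sums without MIR6087, chosen after seeing the data, gave 3370 higher and 1208 lower, and testing every gene with no filter gave 2657 higher. Leaving out each sample in turn gave 1684 to 1932 genes called higher and 2146 to 2488 called lower, with 7 phosphatases higher and 1 lower throughout. Samples of the same number in both groups had deviations from the group means that correlated by 0.116, 0.0328 and 0.0342, so the numbers were not taken to pair the samples; with the replicate block, 1767 genes were called higher and 2266 lower, and 7 and 1 phosphatases. Over the pathway lists, 444 of 468 counts stayed within 1.5 times the value as deposited, and the others came mostly from the rescalings to equal sums. Tests made for counts were not run, as the values are FPKM, and depth limits DUSP5 with DMSO and DUSP9 with BCT most, the lowest values of the family.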

Other observations

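Among the atypical DUSPs and the Sprouty and SPRED genes, 6 were too low on average to be tested. DUSP27, an atypical DUSP, had 0.052, 0.029 and 0.037 FPKM in DMSO samples against 0.411, 0.594 and 0.372 FPKM in BCT samples. SPRED3, of the family that restrains signaling from RAS to RAF, averaged 0.299 ± 0.0442 FPKM in DMSO samples against 1.11 ± 0.237 FPKM in BCT samples, and DUSP19 averaged 0.737 ± 0.0766 against 0.601 ± 0.0651 FPKM (SD, n = 3 each). DUSP13 and SPRY3 had group means of at most 0.053 FPKM, and DUSP21 was listed at 0 in every sample. The groups overlapped in DUSP13, DUSP19, DUSP21 and SPRY3 and not in DUSP27 and SPRED3, where 85.3% of all tested genes had groups that did not overlap.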
